A study of Mus musculus with 6 samples.

Results

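The acrosome is the secretory vesicle that caps the sperm nucleus, and its genes were followed here through the last steps of sperm formation in mouse testis. The list held 35 gene symbols chosen by name, of which 34 were present among the 32285 genes of the count tables. The symbol Equatn was not among the gene names, while Eqtn, the gene for equatorin, was. The study compared the testes of male C57BL/6J mice given 200 µg/mL nicotine in their drinking water for 8 weeks from 3 weeks of age with mice of the same strain and age on plain water. All 6 mice, 3 in each group, were sampled at 11 weeks, and the cells of both testes of a mouse made up 1 droplet single-cell RNA library. The libraries held between 67853893 and 88329607 unique molecular identifiers (UMIs, 1 for each captured RNA molecule) and between 10823 and 12317 cell barcodes. No pair of libraries shared more than 0.467% of its barcodes. Control mouse 2 and nicotine mouse 2 stood apart from the other mice and close to each other: the chi-square per degree of freedom between their gene counts was 1.76, against 4.52 to 5.79 between control mouse 2 and each other mouse. Nicotine mouse 2 was less far from the rest, at 2.67 to 3.92. The lowest value of any pair was 1.64, between control mouse 3 and nicotine mouse 1.

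The acrosome forms from Golgi vesicles that fuse on the nuclear envelope in round spermatids, the haploid cells left by meiosis, and it spreads over the nucleus as the spermatid elongates. Its enzymes and membrane proteins are released or exposed at the acrosome reaction, after which proteins of the equatorial region let the sperm bind and fuse with the egg. Transcription stops during elongation as protamines replace histones, so late proteins are made from stored RNA. The 34 genes cover this course. They include genes of Golgi traffic and acrosome building (Gopc, Spata16, Zpbp, Zpbp2, Spaca1) and of the contents (Acr, Acrbp, Acrv1, Spink2, the lysozyme-like Spaca3, Spaca5, Lyzl1, Lyzl4 and Lyzl6). Others are genes of the attachment to the nucleus (Dpy19l2, Fam209, Actl7a, Actl9, Cylc1) and of egg binding and fusion (Izumo1, Spaca6, Tmem95, Tmem81, Spaca4, Spesp1, Eqtn).

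Promoter sequences from RefSeq (GRCm38.p6) were found for 30 of the 34 genes, and the 250 bases before the start of each were searched on both strands. In all 10 motifs were searched, and the ones shown were picked after their matches had been seen. TGACGT, the core of the element bound by CREB and by its spermatid relative CREM, was in 3 of the 30 promoters (10.0%) against 6.56% of 27025 promoters. GTTGCC, a half-site of the RFX factors, was in 5 of the 30 against 10.48%. TATAAA, the sequence of the TATA box, was in 3 of the 30 (10.0%) against 12.97%. It was counted at any distance within the 250 bases and on either strand, so its matches are not read as working TATA boxes. Of the others, TGACG (which includes TGACGT) was in 7 against 17.9%, CCAAT in 8 against 34.5%, GGGCGG in 11 against 32.9% and CACCC in 16 against 51.3%. TGACGTAA and a longer RFX motif that begins with GTTGCC were in none of the 30, against 0.477% and 0.448%. The promoters below are the 4 that held TGACGT or TATAAA with at most 30 bases inside an annotated exon, and they span the order of the peaks. Spaca7 and Izumo1 peaked in round spermatids, Actl9 and Crisp2 at the end of the ordering. Capitals mark TGACGT and TATAAA on either strand. The Izumo1 promoter, chr7:45621561-45621810 on the plus strand, carried both strands of TGACGT overlapping as the palindrome TGACGTCA, found in 1.62% of all promoters and starting 96 bases before the start. TATAAA or its complement began 242 bases before the start in Spaca7, 242 and 130 in Actl9, and 118 and 97 in Crisp2. The others are chr8:12572786-12573035 (plus) for Spaca7, chr17:33432649-33432898 (plus) for Actl9 and chr17:40794147-40794396 (minus) for Crisp2. The Crisp2 bases lie inside the span of the gene in GENCODE (chr17:40764020-40807003), so the RefSeq start used there is an internal one.
Spaca7: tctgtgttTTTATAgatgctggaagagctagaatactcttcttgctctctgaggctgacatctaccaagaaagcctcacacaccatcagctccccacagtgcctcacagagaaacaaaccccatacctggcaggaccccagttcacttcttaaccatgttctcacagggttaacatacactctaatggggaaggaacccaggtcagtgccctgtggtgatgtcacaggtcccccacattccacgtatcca
Izumo1: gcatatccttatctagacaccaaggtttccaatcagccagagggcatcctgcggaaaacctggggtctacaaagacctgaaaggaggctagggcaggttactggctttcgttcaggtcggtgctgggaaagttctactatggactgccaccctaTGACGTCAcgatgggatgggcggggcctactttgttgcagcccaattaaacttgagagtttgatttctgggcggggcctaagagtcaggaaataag
Actl9: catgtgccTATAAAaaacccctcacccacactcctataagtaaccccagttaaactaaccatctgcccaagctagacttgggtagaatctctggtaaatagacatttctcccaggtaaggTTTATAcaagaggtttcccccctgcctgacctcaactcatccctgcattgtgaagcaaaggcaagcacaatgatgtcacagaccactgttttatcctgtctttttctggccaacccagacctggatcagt
Crisp2: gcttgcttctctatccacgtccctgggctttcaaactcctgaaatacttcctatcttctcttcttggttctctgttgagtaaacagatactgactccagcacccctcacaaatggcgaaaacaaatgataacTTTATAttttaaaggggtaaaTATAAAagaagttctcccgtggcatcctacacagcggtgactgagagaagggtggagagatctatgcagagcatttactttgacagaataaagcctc

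To place each gene in developmental order, 24630 cells from 7 clusters named late spermatocyte, round spermatid or elongating spermatid were ordered without the 34 genes and without 49 further acrosome genes, and cut into 20 bins of equal cell number. Bins 1 to 4 were named late spermatocyte, bins 5 to 8 round spermatid and bins 9 to 20 elongating spermatid, each by fixed marker genes. The names mark a continuum: the cluster that supplied most cells of bin 4 was itself named round spermatid. Levels are given as counts per 1000000 UMIs (CPM) of a bin, averaged over the 6 mice. The peak is the bin with the highest CPM, and the onset is the first bin at 25% of the peak or more.

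Transcripts of the 34 genes came in a succession that began before the round spermatid stage. Of the 34, 10 peaked in the spermatocyte bins, 19 in the round spermatid bins and 5 in the elongating bins. Among 10963 genes reaching 10 CPM, 56.0% peaked in the spermatocyte bins, 24.5% in the round bins and 19.5% in the elongating bins. The onset lay in a spermatocyte bin for 32 of the 34 genes, in bin 1 for 11 of them. Bin 1 is the start of the ordering, so an onset there may lie earlier. In early spermatocyte-like cells, which were not ordered, all of these 11 but Crisp2 (21.2%) stood above 25% of their peak. Spata16 was at 115.8%, Dpy19l2 at 66.6% and Spink2 at 46.7%. The exceptions were Spaca9, with its onset in bin 5, and Actl9, with its onset in bin 6. Spaca6 and Tmem81 had their onset, and Zpbp and Tmem95 their peak, in bin 4, where most cells came from a round spermatid cluster. The peak bin was the same in all 6 mice for 18 genes and differed by 1 bin at most for 33 genes. Acrbp, whose level was nearly flat over the first bins, ranged over 3 bins. Together the 34 genes made up 0.987% ± 0.0244 (SD, n = 6) of all UMIs in bin 1, 1.84% ± 0.0816 in bin 6 and 0.689% ± 0.0242 in bin 13. Since the bins were built from the expression of the same cells, these patterns are a description and carry no test.

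**Figure D1:**
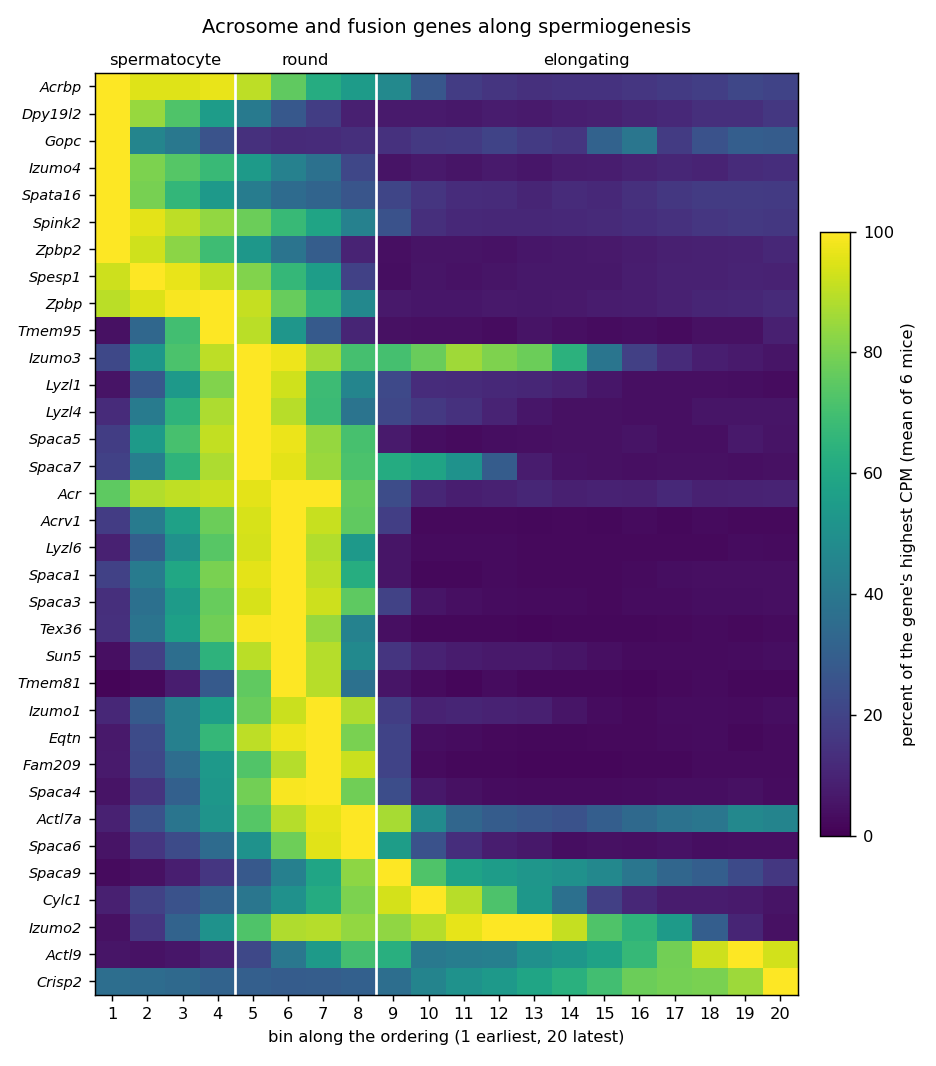
Level of the 34 genes (rows, ordered by peak) in the 20 bins (columns), as a percentage of each gene's highest CPM, mean of 6 mice. White lines part the spermatocyte, round and elongating bins. Of the 19 genes with peaks in bins 5 to 8, all but Izumo3, Spaca7, Spaca6 and Actl7a are under 50% of their peak from bin 9 on, while Spaca9, Cylc1, Izumo2, Actl9 and Crisp2 peak later.

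The earliest group held the genes with their highest level at the start of the ordering. Spink2, an inhibitor of serine proteases that guards against early acrosin activity, was the most abundant of them at 3257 ± 175 CPM (SD, n = 6) in bin 1 and was at 16.04% of that level in bin 20. Zpbp2 (640 ± 20.98 CPM), a zona pellucida binding protein of the acrosomal matrix, Acrbp (584 ± 20.98 CPM), which holds proacrosin in its inactive form, and Izumo4 (392 ± 40.1 CPM) also peaked in bin 1. The same bin held the peaks of Spata16 (331 ± 22.5 CPM), a Golgi protein needed for acrosome building, and of Dpy19l2 (229 ± 18.8 CPM), which anchors the acrosome to the nuclear envelope. These genes fell at different speeds, since the last bin at 50% of the peak or more was bin 7 for Spink2, bin 5 for Zpbp2 and bin 4 for Dpy19l2. Bin 1 is the start of the ordering, so a peak there may lie earlier. In early spermatocyte-like cells, which were not ordered, Spata16 stood at 383 ± 46.1 CPM, above its level in bin 1, whereas Dpy19l2 (153 ± 21.5 CPM) and Spink2 (1521 ± 216 CPM) were lower than in bin 1. Spesp1, a protein of the equatorial segment, peaked in bin 2 at 299 ± 25.2 CPM and Zpbp in bin 4 at 604 ± 36.2 CPM.

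Gopc, a Golgi trafficking protein that many cell types make, was an exception to the list. It reached only 10.2 ± 1.63 CPM in bin 1, with 933 UMIs over all ordered cells. Its level was 44.0 ± 2.45 CPM in early spermatocyte-like cells, 18.7 ± 4.39 CPM in Leydig-like cells and 17.6 ± 4.58 CPM in Sertoli-like cells.

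Tmem95, a sperm membrane protein required for fusion with the egg, had a short window. It rose from 3.34 ± 1.198 CPM in bin 1 to its peak of 75.6 ± 4.28 CPM in bin 4, in the same bin in all 6 mice. Other genes of egg binding and fusion had later peaks, while Spesp1 had come before it. Tmem81 had its onset in bin 4 and its peak in bin 6 (170 ± 8.39 CPM), Izumo1, which binds the egg receptor JUNO, peaked in bin 7 (203 ± 7.97 CPM), and Spaca6 peaked in bin 8 (157 ± 12.03 CPM). Spaca4, a small anchored membrane protein of the acrosome that acts in zona binding, peaked in bin 7 at 774 ± 37.3 CPM. Izumo1 and Spaca6 share exon bases with other genes on the same strand (Rasip1 and Mir125a), and Acrbp does with Gm44597, so some of their reads may not be assignable to 1 gene.

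The round spermatid group held most genes of the acrosomal content and membrane. Bin 5 was the peak of Spaca7 (921 ± 48.7 CPM), of Lyzl1 (880 ± 54.1 CPM), of Lyzl4 (437 ± 19.4 CPM), of Izumo3 (288 ± 8.66 CPM), which acts in acrosome formation, and of X-linked Spaca5 (124 ± 8.32 CPM). Bin 6 was the peak of Tex36 (1238 ± 86.4 CPM), of Spaca1 (1045 ± 43.0 CPM), an inner acrosomal membrane protein, and of Lyzl6 (1005 ± 71.3 CPM). Acrv1 (881 ± 89.7 CPM), a marker of the acrosomal matrix, Spaca3 (808 ± 50.5 CPM) and Sun5 (238 ± 26.7 CPM), a nuclear envelope protein, peaked in bin 6 as well. Acr, the gene of the protease acrosin, differed from its neighbours because it already stood at 75.4% of its peak (180 ± 6.57 CPM in bin 6) in bin 1. Fam209, the partner of Dpy19l2, peaked in bin 7 at 1328 ± 81.9 CPM, 6 bins after Dpy19l2. Equatorin (Eqtn, 265 ± 15.5 CPM) shared its bin, and Actl7a, an actin-like protein under the acrosome, followed in bin 8 (366 ± 17.9 CPM).

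The end of the round stage was sharp for most of these genes. Acrv1 went from 666 ± 48.7 CPM in bin 8 to 164 ± 19.1 CPM in bin 9 and 24.0 ± 3.09 CPM in bin 10, and Izumo1 from 179 ± 10.6 CPM in bin 8 to 36.7 ± 6.75 CPM in bin 9. The last 2 bins of the round stage hold the cells with the most RNA, and the median UMIs of a cell went from 19542 in bin 8 to 14717 in bin 9 and 10665 in bin 10. As a share of all UMIs, not every round-stage gene fell so far. Actl7a was still at 45.01% of its peak CPM in bin 20, where the median UMIs of a cell were 3161. The share of its RNA molecules left in a cell was therefore lower than that. Its UMIs per cell were highest in bin 8, at 8.82. The last bin at 50% of the peak CPM or more was bin 14 for Izumo3 and bin 11 for Spaca7. Izumo3 had a second rise in CPM, from 203 in bin 8 to 246 in bin 11. Over the same bins the median UMIs of a cell went from 19542 to 9489.5, so this is no rise per cell. Counted as UMIs per cell, Izumo3 was highest in bin 5, at 6.49.

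The other 5 genes peaked in the elongating bins, and each followed its own course. Spaca9, a microtubule-associated protein, rose from 63.5 ± 7.196 CPM in bin 1 to 2223 ± 178 CPM in bin 9, the first elongating bin. X-linked Cylc1, a structural protein of the calyx beneath the acrosome, peaked in bin 10 at 265 ± 19.5 CPM. Izumo2 was already at 644 ± 31.7 CPM in bin 6, reached 730 ± 24.6 CPM in bin 13 and then fell to 31.9 ± 4.62 CPM in bin 20, so it outlasted Izumo1 by many bins. Actl9, the actin-like partner of Actl7a, had a first maximum of 344 ± 22.7 CPM in bin 8, a dip to 198 ± 11.5 CPM in bin 10 and a higher one of 491 ± 53.5 CPM in bin 19. Crisp2, a cysteine-rich protein of the acrosome and tail, was high throughout, at 1997 ± 69.2 CPM in bin 1 and 5504 ± 218 CPM in bin 20.

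The late peaks are relative to a shrinking amount of RNA. Counted as UMIs per cell, Crisp2 was highest in bin 8 (40.5 UMIs a cell) and had 21.1 in bin 20, and Actl9 went from 8.29 in bin 8 to 1.75 in bin 20. Spaca9 and Cylc1 also had their highest UMIs per cell in bin 8, and Izumo2 in bin 7. Late values of the other genes also have to be read against their levels in cell types that do not form an acrosome. How much of those levels was free RNA in the droplets was not tested. In Leydig-like cells (382 cells), the androgen-producing cells between the tubules, the 34 genes stood at a median of 3.61% of their peak, and in Sertoli-like cells (4411 cells), the nurse cells of the tubule, at 14.7%. Sertoli-like levels of the 11 genes with their onset in bin 1 ran from 29.3% (Crisp2) to 172.9% (Gopc) of the peak. In bin 20, 29 of the 34 genes were at or below their Sertoli-like level and 7 at or below their Leydig-like level. In bin 1 these counts were 17 and 4, and they took in Izumo2 and Tmem81, so a low level at either end is not read as expression. Gopc, which many cell types make, is in each of these counts.

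**Figure D2:**
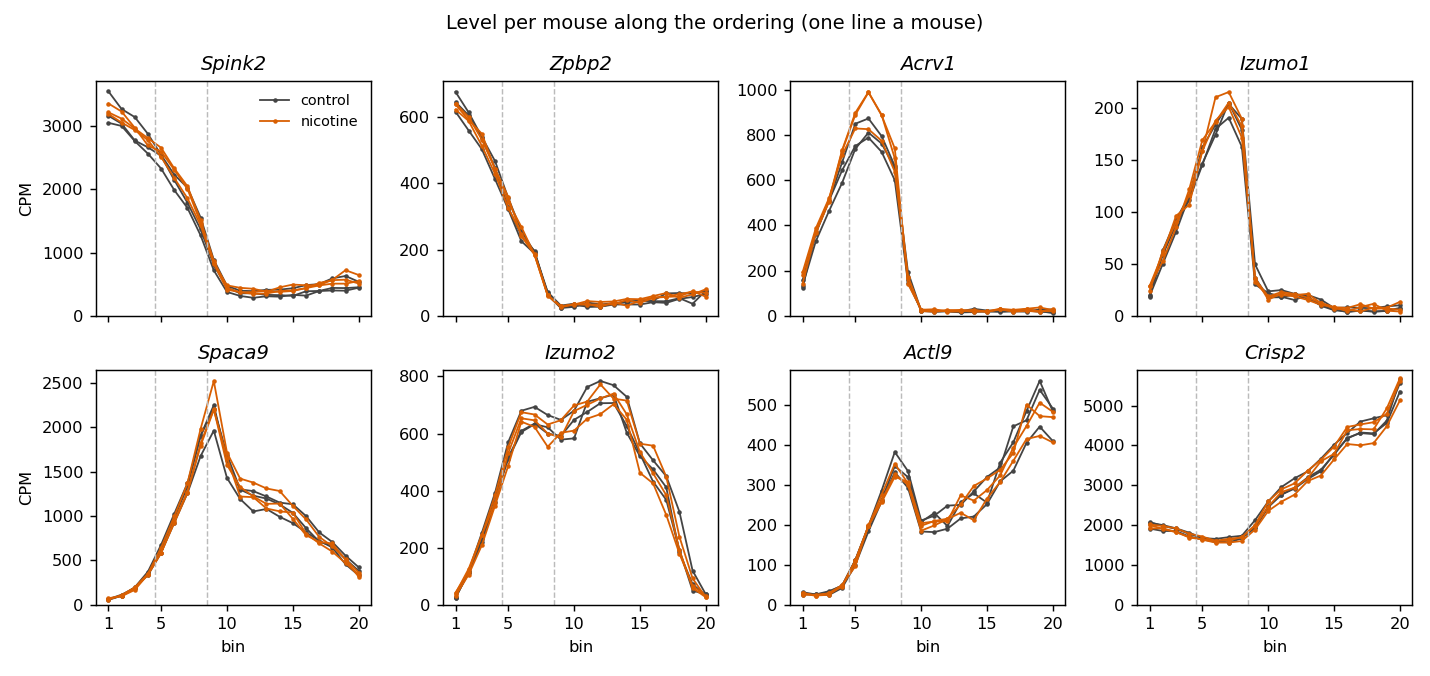
CPM (vertical axis) by bin (horizontal axis) for 8 genes, with 1 line for each mouse, control in grey and nicotine in orange. Dashed lines part the spermatocyte, round and elongating bins. The lines of the groups overlap, with 2 nicotine mice highest for Acrv1 in bin 6, and the peaks move from bin 1 (Spink2, Zpbp2) through bins 6 and 7 (Acrv1, Izumo1) to bins 9 to 20 (Spaca9, Izumo2, Actl9, Crisp2).

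Control and nicotine mice were then compared at matched stage. Each stage held the same number of cells from every mouse in every bin, 304 cells a mouse in earlier round (bins 5 and 6), 285 in later round (bins 7 and 8), 920 in earlier elongating (bins 9 to 14) and 975 in later elongating spermatids (bins 15 to 20). UMIs were summed per mouse, so n = 3 mice a group, and tested over all genes with edgeR's quasi-likelihood test. No gene of the 34 passed an adjusted p of 0.05 in any of the 4 stages. The background was as bare: 0% of 13341 genes were called in earlier round, 0% of 13111 in later round, 0% of 12598 in earlier elongating and 0.0198% of 10126 (2 genes, 0.00988% higher and 0.00988% lower) in later elongating spermatids. At an unadjusted p under 0.05 there were 2, 2, 3 and 3 of the 34 genes in the 4 stages, beside 414, 645, 570 and 589 of all genes. DESeq2 called none of the 34 in any stage either. The 2 called genes, named after their values were seen, were Fabp3 (log2 fold change -1.02, SE 0.17, edgeR adjusted p = 0.0138) and Ccl28 (1.00, SE 0.18, edgeR adjusted p = 0.0238). Fabp3 was on the marker list of Leydig cells.

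The median log2 fold change of the 34 genes, nicotine minus control, was 0.04 in earlier round, -0.01 in later round, -0.01 in earlier elongating and 0.09 in later elongating spermatids. The median over all tested genes was 0.00 in all 4 stages. Of the 34 genes, 23, 16, 17 and 22 had a positive value. These counts turned on single mice: with 1 mouse left out they lay between 18 and 30, 10 and 23, 13 and 21, and 19 and 24. In later round spermatids 10 were positive without control mouse 3 (median -0.03) and 23 without control mouse 2 (median 0.03), so neither direction is read from them. The median in later elongating spermatids lay between 0.05 and 0.13. With UMI totals as the only scaling, the medians in later elongating spermatids were 0.18 for the 34 genes and 0.08 for all genes, so the shift of all genes moved with them.

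The precision of the comparison was set by the mice and by the depth of each gene. The 95% interval of the fold change lay within 1.5-fold in either direction for 33 of the 34 genes in earlier round, 33 in later round, 31 in earlier elongating and 27 in later elongating spermatids. Gopc was outside in all 4, with an interval of up to 1.62 on the log2 scale in earlier round spermatids. All genes but Gopc lay within 2-fold in earlier round, later round and later elongating spermatids, and all but Tmem95 did in earlier elongating spermatids.

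**Figure D3:**
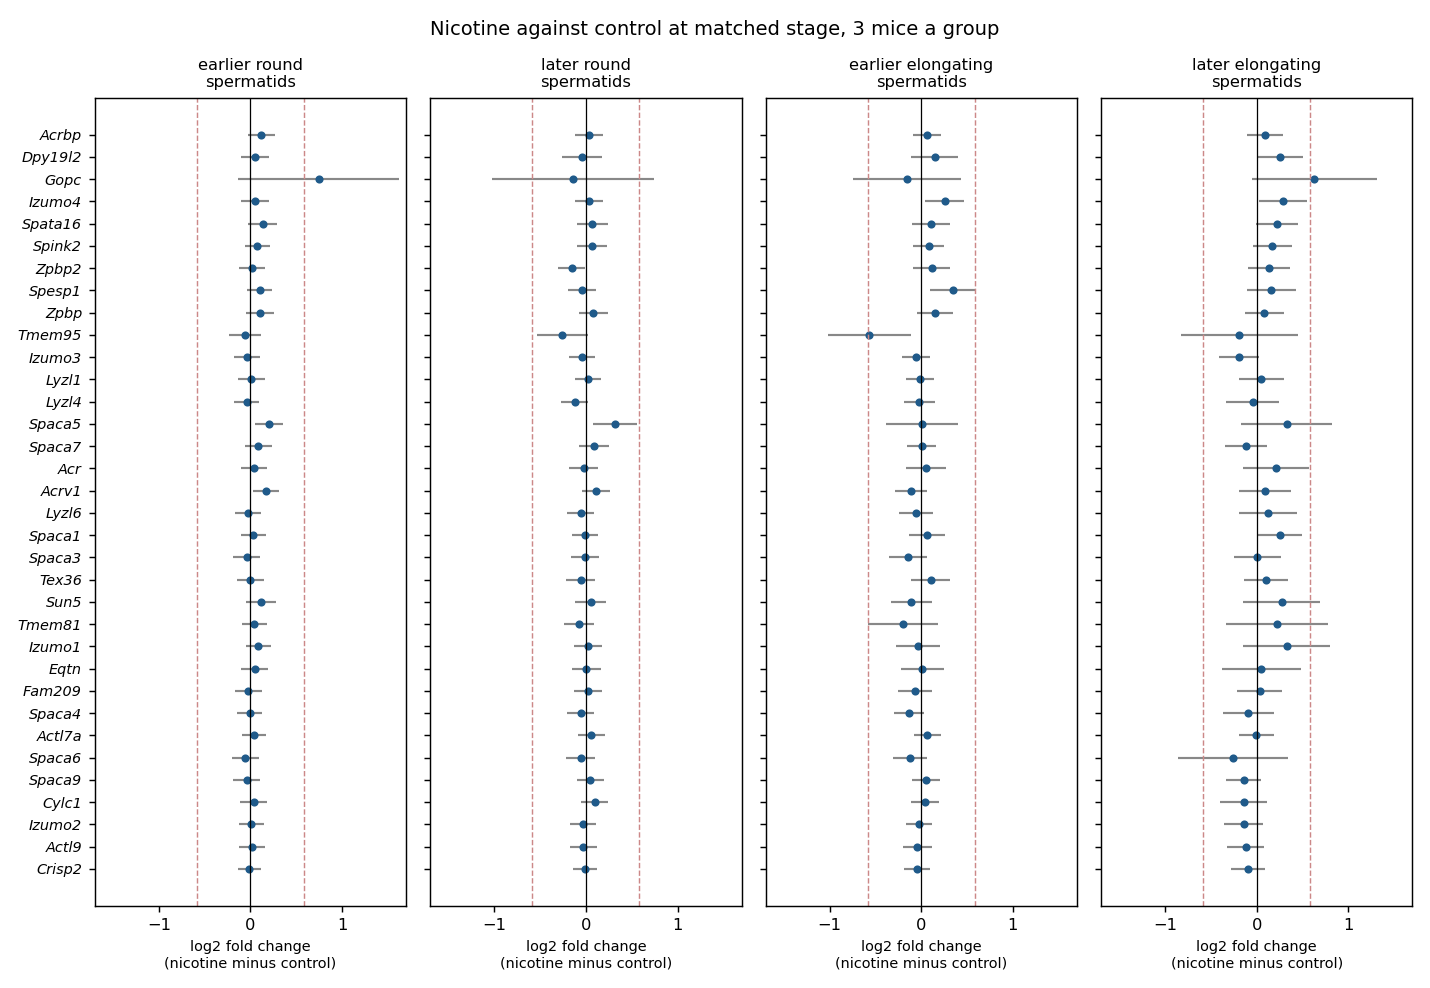
Log2 fold change, nicotine minus control (horizontal axes), of the 34 genes (rows, ordered by peak) in the 4 matched stages, with 95% intervals from edgeR as bars. Dashed red lines mark 1.5-fold in either direction. The values lie near 0, and the widest intervals belong to Gopc and, in the elongating stages, to genes at low level such as Tmem95 and Spaca6.

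The most abundant genes had close values in the 2 groups at their own stage. Crisp2 in later elongating spermatids stood at 4495, 4762 and 4546 CPM in the control mice and 4403, 4576 and 3920 CPM in the nicotine mice (log2 -0.10, SE 0.09). Spaca9 in earlier elongating spermatids stood at 1567, 1532 and 1357 CPM in control and 1473, 1659 and 1492 CPM in nicotine mice (log2 0.05, SE 0.07). In both genes the groups overlapped. Izumo2 in the same stage had 675, 707 and 659 CPM in control and 669, 699 and 638 CPM in nicotine mice (log2 -0.03, SE 0.07), and Actl9 in later elongating spermatids had 353, 431 and 418 CPM against 376, 401 and 329 CPM (log2 -0.12, SE 0.10). Neither the egg-fusion paralog nor the actin-like gene showed a group that stood apart.

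Genes of the acrosomal content and membrane were compared in earlier round spermatids, where most of them peaked. Spink2, past its peak in bin 1, had 2434, 2365 and 2160 CPM in control and 2337, 2498 and 2486 CPM in nicotine mice (log2 0.07, SE 0.06). Spaca7 had 892, 944 and 815 CPM in control and 869, 997 and 944 CPM in nicotine mice (log2 0.08, SE 0.07). The spread among control mice covered most of the difference in both genes. Lyzl1 (log2 0.01, SE 0.07) had 860, 900.3 and 773 CPM against 832, 897 and 822 CPM, and Lyzl6 (log2 -0.03, SE 0.07) had 977, 1043 and 934 CPM against 946, 1036 and 916 CPM. Control mouse 3 was the lowest control for each of these lysozyme-like genes. Spaca1 had 1026, 1075 and 951 CPM in control and 1017, 1083 and 1018 CPM in nicotine mice (log2 0.03, SE 0.07). Tex36 had 1241, 1337 and 1143 CPM against 1215, 1330 and 1175 CPM (log2 0.00, SE 0.07), with overlap in both genes. In later round spermatids Fam209, the Dpy19l2 partner, had 1306, 1367 and 1128 CPM in control and 1250, 1332 and 1285 CPM in nicotine mice (log2 0.02, SE 0.07), again with overlap.

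Acrv1 was the abundant gene with the largest value in earlier round spermatids. It stood at 786, 868 and 765 CPM in the control mice and 827, 937 and 955 CPM in the nicotine mice (log2 0.17, SE 0.07, edgeR adjusted p = 1.00). The nicotine mean was higher, but nicotine mouse 1 lay below control mouse 2. Earlier elongating spermatids span the fall of Acrv1, from 164 ± 19.1 CPM in bin 9 to 24.0 ± 3.09 CPM in bin 10. There Acrv1 had 53.7, 59.8 and 54.2 CPM in control and 52.0, 49.4 and 53.6 CPM in nicotine mice (log2 -0.11, SE 0.08), with no overlap and the opposite sign. The part of bin 9 in this difference was not tested. A separate fit compared the effect in both elongating stages together with that in both round stages together. The difference, elongating minus round, was -0.23 (SE 0.06, edgeR adjusted p = 0.0573) for Acrv1, the smallest p among the 34. None of the 34 passed that test in edgeR, against 0.874% of 16141 genes, and 6 had an unadjusted p under 0.05, as did 1752 of all genes, whereas DESeq2 called Acrv1 (adjusted p = 0.0403). Without nicotine mouse 2, edgeR called Izumo4 (0.33, adjusted p = 0.0308) and not Acrv1 (-0.15), and the difference for Izumo4 with all mice was 0.24.

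Spaca5, the X-linked lysozyme-like gene, was higher after nicotine in both round stages without passing the test. In earlier round spermatids it had 111, 121 and 109 CPM in control and 120.04, 137 and 135 CPM in nicotine mice, and in later round spermatids 101, 77.5 and 77.4 CPM against 92.8, 112 and 114 CPM. The groups overlapped in both stages, and the log2 fold changes were 0.20 (SE 0.07, edgeR adjusted p = 1.00) and 0.31 (SE 0.11, edgeR adjusted p = 0.983).

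The groups did not overlap for 0, 3, 7 and 3 of the 34 genes in the 4 stages, beside 8.31%, 10.5%, 10.2% and 12.3% of all tested genes. In later round spermatids all 3 were lower after nicotine. Zpbp2 had 135, 135 and 128 CPM in control and 116, 122 and 119 CPM in nicotine mice (-0.15 on the log2 scale, SE 0.07, adjusted p = 0.983 in edgeR). Tmem95 and Lyzl4 were the others. In earlier elongating spermatids Spesp1, Izumo4 and Actl7a were higher and Tmem95, Spaca4, Spaca6 and Acrv1 lower. Tmem95 was at 3.21, 4.63 and 4.08 CPM in control and 2.56, 2.58 and 2.87 CPM in nicotine mice there, a level under 10% of its peak. Spesp1 was at 12.6, 14.3 and 15.9 CPM in control and 19.6, 17.1 and 17.7 CPM in nicotine mice (log2 0.34, SE 0.12, edgeR adjusted p = 0.998), below 10% of its peak too. In later elongating spermatids Dpy19l2 and Gopc were higher and Spaca7 lower.

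Markers of other cells and depth moved with the groups. The Leydig marker sum was lower in every nicotine mouse than in any control mouse in all 4 stages. The summed CPM of the 6 Leydig markers, (Star, Cyp17a1, Cyp11a1, Hsd3b1, Insl3 and Fabp3), was between 14.3 and 16.8 in control and between 6.97 and 10.83 in nicotine mice in later round spermatids. In earlier elongating spermatids it was between 17.2 and 26.0 against 10.82 and 12.7. Fabp3, the gene called above, made up most of that sum in later elongating spermatids. Its mean, scaled as in the test, was 19.01 CPM in control and 9.31 CPM in nicotine mice. The mean sums, scaled by UMI totals only, were 29.9 and 15.97, so its shares are approximate. The sum and the call are not separate facts there. Of the other lists, the Sertoli sum was lower after nicotine without overlap in later round (5.54 to 11.9 against 2.59 to 4.94) and later elongating spermatids (20.6 to 28.9 against 10.7 to 19.8). The stromal sum was lower in earlier elongating spermatids (2.08 to 2.63 against 1.23 to 1.565), and the endothelial sum was higher in later round spermatids (13.52 to 15.6 against 16.2 to 17.7). The median UMIs per cell were between 18263 and 19882 in control and between 15570 and 17258 in nicotine mice in earlier round spermatids, without overlap, as in later round spermatids. The part of depth and of free RNA in the members' values was not tested.

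Because 32 of the 34 genes had their onset in the spermatocyte bins, the test was repeated there, a comparison added after the data were seen. With 612 cells a mouse matched by bin, none of the 34 genes was called (0% of 15326 genes), their median was 0.02 and 1 gene had an unadjusted p under 0.05, as did 328 of all genes. With all cells of these bins and no matching, none was called either, but the median was 0.17, 27 of the 34 were positive and 16 had an unadjusted p under 0.05, beside 1570 of all genes. The gene in the matched comparison was Acrv1, at 427, 459 and 458 CPM in control and 493, 501 and 491 CPM in nicotine mice (log2 0.14, SE 0.06, edgeR adjusted p = 1.00). Its groups did not overlap, as in 7.17% of all genes. The median UMIs per cell were between 17124 and 17546 in control and between 14334 and 16483 in nicotine mice there, and their part was not tested.

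Without matching the result was another one, in a comparison also added after the data were seen, and a rise of some of these genes in spermatocytes was known from earlier work on the same libraries. In all 3322 cells of the cluster named late spermatocyte, 14 of the 34 genes were higher after nicotine and none lower, beside 1.92% of 15090 genes (229 higher and 61 lower). Lyzl1 rose from 178, 181 and 214 CPM in control to 263, 275 and 255 CPM in nicotine mice (0.47 on the log2 scale, SE 0.08, adjusted p = 0.0241 in edgeR). Tex36 rose from 362, 365 and 374 CPM to 472, 497 and 465 CPM (log2 0.38, SE 0.06, edgeR adjusted p = 0.0241). Izumo1 rose from 41.2, 43.7 and 50.4 CPM to 55.4, 59.7 and 63.9 CPM (log2 0.40, SE 0.09, edgeR adjusted p = 0.0381). In all 3 genes every nicotine mouse lay above every control mouse. The other 11 called genes were Spaca3, Lyzl6, Izumo2, Fam209, Acrv1, Spaca7, Eqtn, Spaca1, Lyzl4, Spaca4 and Actl7a, with log2 fold changes between 0.32 and 0.44. The median was 0.33 for the 34 genes and 0.00 for all genes. The calls rested on the full set of mice: without control mouse 1 or 2, or without any 1 of the nicotine mice, none of the 34 was called, with medians between 0.30 and 0.34, and without control mouse 3 there were 20 calls with a median of 0.37.

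All 14 called genes peaked in bins 5 to 13, and none of the 10 genes that peaked in the spermatocyte bins was called. In the control mice the 14 genes rose between bin 1 and bin 3 by 1.68 to 3.63 on the log2 scale. Genes that were not called ranged from -1.43 to 4.31, and 8 of them rose by 1.67 or more: Tmem95, Sun5, Tmem81, Spaca6, Spaca5, Izumo3, Cylc1 and Spaca9. Their differences in the cluster were between 0.17 and 0.58, with Tmem81 at 0.58 (SE 0.17, edgeR adjusted p = 0.0815). Over the 34 genes the difference in the cluster correlated with the rise at r = 0.91. With equal cells per bin, described below, r was 0.40. What set the calls was not tested. The cells of the cluster were spread over bins 1 to 4 in different shares. Bin 1 held 43.7% ± 7.06 (SD, n = 3) of the cluster's cells in control mice and 28.4% ± 3.60 in nicotine mice, with ranges of 35.7% to 49.1% and 24.6% to 31.7%. Bin 2 held 32.7% ± 3.97 in control and 42.4% ± 2.26 in nicotine mice. When every mouse gave the same number of cells of the cluster to each bin, 382 cells a mouse, none of the 34 genes was called (0% of 13903 genes). The 14 genes then had log2 fold changes between 0.05 and 0.15 (log2, 382 cells a mouse) with a median of 0.11, against 0.32 to 0.47 and a median of 0.38 before, and the median of all 34 genes was 0.07. The largest value was then that of Tmem81, which was not called in either comparison, at 0.23. All 14 remained above 0, and the smallest unadjusted p was 0.0463, for Acrv1. The bins come from the expression of other genes, so a change shared by those genes and the acrosome genes would be evened out by the matching as well, and a shift in cell stage and a change in expression cannot be told apart here.

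**Figure D4:**
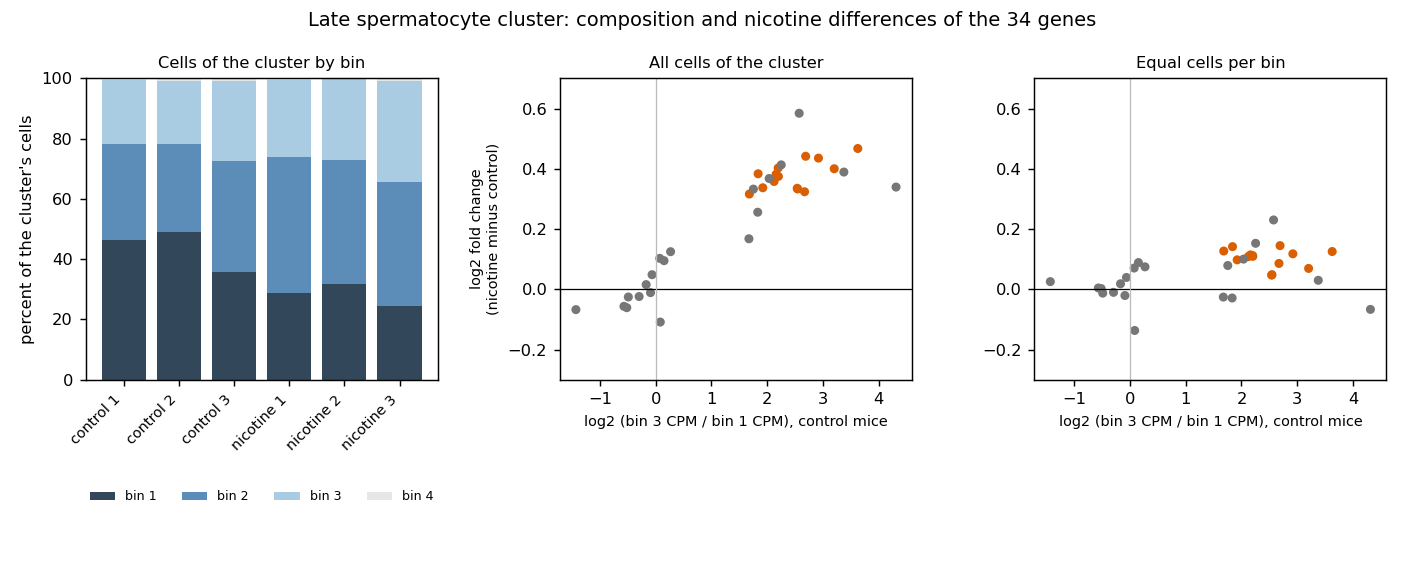
Left, percentage of the late spermatocyte cluster's cells in bins 1 to 4 for each mouse. Middle and right, log2 fold change of the 34 genes (nicotine minus control) against their log2 ratio of bin 3 to bin 1 in control mice, for all cells of the cluster and for equal cells per bin, with the 14 genes called in the full cluster in orange. Bin 1 is smaller in every nicotine mouse than in any control mouse, and the orange points come down from 0.32 to 0.47 to between 0.05 and 0.15.

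Of the 49 further genes of acrosome and fusion, between 46 and 47 could be tested and none was called in any matched stage. Their medians in the 4 spermatid stages were 0.01, 0.00, -0.03 and -0.05. In the unmatched late spermatocyte cluster 5 of 47 were higher and none lower, beside 1.52% higher and 0.404% lower of 15090 genes. The 5 calls stayed 5 with a replicate block and became 7 with DESeq2, 10 with no filter and 0 with no TMM. They also became 0 without control mouse 1 or 2, or without any 1 of the nicotine mice, and 13 without control mouse 3. The 5 genes were Pdilt, a chaperone for sperm surface proteins, Spam1, a hyaluronidase, Tmem190, Fam170b and Galntl5. Their log2 fold changes were between 0.31 and 0.38, and none was called with equal cells per bin.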

How the data were processed

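Raw UMI counts per gene and cell, which the authors deposited, were made with Cell Ranger 7.2.0 on GRCm38 (mm10), per the submitters' processing notes, from 10x Chromium 3′ libraries, per the labels' protocols. Nothing in the labels ties mice to litters or batches, and p-values measure the spread between the 3 mice of a group. Cells with at least 500 UMIs, 250 genes and at most 20% mitochondrial UMIs were kept, and the cells with the highest scrublet scores were removed at 0.8% per 1000 cells, since the tool's own threshold marked 0.0% to 1.95% of cells. This left 61945 of 68400 barcodes. Cells were clustered without the acrosome genes (scanpy 1.11.5, 2000 variable genes, 30 components, 15 neighbours, Leiden resolution 1.0), and clusters were named by marker lists. Clusters named late spermatocyte, round or elongating spermatid with a marker score of at least 1 and a median UMI number not under that of all kept cells were ordered, using cells of at least 2000 UMIs.

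The ordering is the first diffusion component of the neighbour graph after edges between clusters that are not adjacent on the spanning tree were removed. It was settled after the data were seen. Diffusion pseudotime with 15 and 50 neighbours, with and without 1 further cluster, and after removal of edges had put marker genes out of their known order. The orderings were judged on marker genes, levels of Acrv1 and Izumo1 were printed in those trials, and nicotine differences were not used. That cluster, early spermatocytes and clusters of low UMI number were left out.

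Counts were summed per mouse and stage and tested with edgeR 4.0.16 (TMM scaling, filterByExpr, robust quasi-likelihood test, Benjamini-Hochberg adjustment over all genes of a stage, threshold 0.05). CPM values per mouse beside a test are TMM-scaled. The stage difference was tested with the mouse as block. Intervals are 95%. The test was tried on simulated data. DESeq2 1.42.0 was an alternative, and the others are named in the closing section. The doublet rate, the spermatocyte comparisons, the bin ratio and the genes drawn as curves were chosen after the data were seen. The members and gene lists were chosen with earlier results of these data known. Full values are given for the 12 members with the highest mean CPM over the spermatid bins. Members are otherwise named for their unadjusted p, for groups that did not overlap or for the cluster comparison, which was chosen after the values were seen. Exon overlaps come from GENCODE vM21 on GRCm38. The control and nicotine mice share replicate numbers in the titles, but the labels give no shared source for them. Same-numbered mice deviated together in pair 2 (r between 0.192 and 0.246 over stages) and not in pairs 1 (-0.068 to 0.032) and 3 (-0.045 to 0.08), so the main test has no block.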

Additional observations from a re-analysis of the deposited data

Results flagged for a closer look

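The nicotine effect differed between elongating and round spermatids for 2 of the 48 tested genes of the further acrosome list, while none of the 34 members passed that test. Over all genes 141 of 16141 (0.874%) passed it. Only 36 of those 141 had a positive difference, so the negative sign of the 2 genes was the common one. Tmem190, a sperm membrane protein, had an effect lower by 0.29 on the log2 scale in elongating spermatids (difference -0.29, SE 0.07, edgeR adjusted p = 0.0194). Calr3, a testis calreticulin, had a difference of -0.23 (SE 0.06, edgeR adjusted p = 0.0290). Neither was called within a matched stage. With all cells in place of equal numbers per bin, no gene at all was called in this test. None of the further list was called without control mouse 2, control mouse 3 or nicotine mouse 3.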

How the results depend on the processing

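No member was called in the 4 matched spermatid stages or the spermatocyte bins under any alternative run (DESeq2, no filter, replicate block, no TMM, all cells, another draw, at least 4000 UMIs, doublets left in, each mouse left out, and, for the spermatid stages only, Leiden clusters in place of bins). Counts over all genes moved more. In earlier round spermatids they went from 0 to 2 with no filter and to 1 with a replicate block, in later round spermatids to 7 with no filter, and in the spermatocyte bins to 1 with no filter. In earlier elongating spermatids they went from 0 to 7 with no filter, 15 with a replicate block and 2 with Leiden clusters, with 0 to 1 when a mouse was left out. In later elongating spermatids they went from 2 to 0 with DESeq2 or doublets left in, 8 with no filter, 11 with a replicate block, and 1 with Leiden clusters or 4000 UMIs, with 0 to 3 when a mouse was left out.

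In the late spermatocyte cluster the 14 member calls became 4 with no TMM and 0 to 20 with a mouse left out, and the 290 calls over all genes became 827 with no filter, 45 with no TMM and 0 to 1582 with a mouse left out. With a replicate block the cluster gave 14 members and 320 genes. With equal cells per bin, leaving a mouse out gave 0 to 1 genes and no member. For the stage difference, the member count of 0 became 1 with DESeq2 and 0 to 1 with a mouse left out, and the count over all genes of 141 became 90 with DESeq2, 0 with all cells, and 11 to 236 with a mouse left out. The cause was not tested. Replicate numbers did not pair all mice: control mouse 2 correlated best with nicotine mouse 2 in every stage (r between 0.192 and 0.246), but control mouse 1 with nicotine mouse 3. The 34 peaks stayed in their stage with 10 bins or 4000 UMIs, and onsets in spermatocyte bins numbered 31 with 10 bins and 28 at 50% of the peak. In the 4 spermatid stages the 10 member fold changes with an unadjusted p under 0.05 kept their sign in the alternatives run.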

Other observations

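Of the 49 further acrosome genes, 18 peaked in the spermatocyte bins, 12 in the round bins and 19 in the elongating bins. These counts include genes with few UMIs over all ordered cells, such as Syt6 (10), Cplx1 (174) and Vps54 (441), whose peak bins are unsure. The genes given here were chosen after their values were seen. Clgn, a chaperone of the endoplasmic reticulum needed for sperm surface proteins, was highest in bin 1 at 946 ± 35.2 CPM (SD, n = 6), and Prss21, a membrane serine protease, peaked there at 181 ± 20.7 CPM. Spam1 (243 ± 24.5 CPM), Zp3r (237 ± 14.9 CPM) and Dcst1 (50.9 ± 6.47 CPM) peaked in bin 5, and Hyal5, the other hyaluronidase of the list, in bin 6 at 167 ± 11.1 CPM.

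Other genes of the list had their highest CPM later. Ccin, a protein of the calyx around the nucleus, peaked in bin 9 at 583 ± 46.7 CPM, Capza3 in bin 10 at 778 ± 47.7 CPM and Actrt2 in bin 14 at 1871 ± 182 CPM, whereas Cylc2, a cylicin of the calyx, peaked in bin 5 at 472 ± 35.2 CPM. Plcz1, the phospholipase that sets off calcium waves in the egg, peaked in bin 18 at 301 ± 17.7 CPM. Llcfc1, a fusion gene, was highest in bin 20 at 1254 ± 64.8 CPM. Counted as UMIs per cell, Ccin, Capza3 and Actrt2 were highest in bin 8, and Plcz1 and Llcfc1 in bin 7. Cd46, a complement regulator of the inner acrosomal membrane in rodents, rose from 2.21 CPM in bin 1 to 218 ± 16.4 CPM in bin 8 and was at 3.01 CPM in bin 20.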
